A study of Branchiostoma lanceolatum with 6 samples.

Results

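The endostyle and club-shaped gland cells of the amphioxus neurula are the 223 cells that the deposited annotation placed under that name, out of 14586 cells in all (1.53%). They make up metacells 3 and 10, with 87 and 136 cells. A metacell is a small cluster of cells with closely similar transcriptomes. The study dissociated and pooled wild-type embryos of *Branchiostoma lanceolatum* at 21 hours post-fertilization, raised at 19 °C, sorted live cells into 40 plates and sequenced them by MARS-seq, a plate-based method that counts polyadenylated transcripts by unique molecular identifiers (UMIs). All groups below come from this 1 pool of embryos and carry no treatment. The comparison group is the 842 cells annotated as endoderm, in 11 metacells, because the pharyngeal rudiments arise within the endoderm.

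The endostyle is a ciliated groove on the pharyngeal wall of amphioxus, tunicates and larval lampreys that secretes mucus for filter feeding and binds iodine, and it is regarded as the counterpart of the vertebrate thyroid. The club-shaped gland is a secretory tube of the larval pharynx of amphioxus that disappears at metamorphosis. Neither organ has taken its final shape at the neurula stage. *Nkx2.1*, *Foxe* and *Pax1/9* encode transcription factors whose vertebrate relatives act in thyroid and pharyngeal pouch development. The vertebrate relatives of *Nkx2.5*, a homeobox gene, and *Tbx1/10*, a T-box gene, act in heart and pharyngeal development, and *Irxc* belongs to the Iroquois homeobox family.

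The 223 cells gave 540883 UMIs, with a median of 1833 per cell (range 451 to 10658), and the endoderm cells gave 2253547 UMIs with a median of 1936.5. Metacell 3 was deeper (median 3221 UMIs) than metacell 10 (median 1581). No cell name occurred more than once. The series holds 2 scRNA-seq samples, but the cell names do not show which of them a cell belongs to. All cells were therefore taken as 1 sample, so there is no replicate and no test. A level is the summed UMIs of a gene per 10,000 UMIs of the group, and its 95% interval (exact Poisson for levels, exact binomial for folds and shares) covers counting error only. The metacells were built from these same counts, so every difference between them and the endoderm is a description.

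The marker genes of the label were highest in these cells. The study named its metacells from known markers and gives *Foxe* and *Nkx2.5* for this territory. Their high levels here are therefore not independent of the label. *Foxe* (BLAG13000518) stood at 13.2 (95% interval 12 to 14.5) in metacell 3, at 3.60 (2.85 to 4.48) in metacell 10 and at 0.595 (0.498 to 0.704) in endoderm. *Nkx2.1* (BLAG04001574) stood at 13.9 (12.7 to 15.3), 6.07 (5.09 to 7.19) and 1.62 (1.46 to 1.79) in the same groups. The level of *Nkx2.5* (BLAG03001041) was 3.86 (3.21 to 4.61) in metacell 3, 0.945 (0.585 to 1.44) in metacell 10 and 0.222 (0.165 to 0.293) in endoderm. For all 3 genes the intervals of the 3 groups were separate, and metacell 10 lay between metacell 3 and endoderm. *Pax1/9* (BLAG04001279) followed the same order in the sums over all plates, with levels of 6.37, 4.05 and 1.89. On plates 1, 2 and 13 to 20, which held most metacell 10 cells, it stood at 3.45 (2.65 to 4.41) in metacell 10. On the other 30 plates the order was not seen, with 6.35 (5.49 to 7.30) in metacell 3 and 6.81 (4.49 to 9.91) in metacell 10. *Tbx1/10* (BLAG01102804) was sparse, with 36 UMIs in metacell 3, 8 in metacell 10 and 12 in the whole endoderm, which gave levels of 1.13, 0.360 and 0.0532. *Irxc* (BLAG07000983) was the exception to the order: its level was 1.51 (1.11 to 2.0) in metacell 3 and 1.57 (1.10 to 2.19) in metacell 10, against 0.719 in endoderm.

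**Figure D1:**
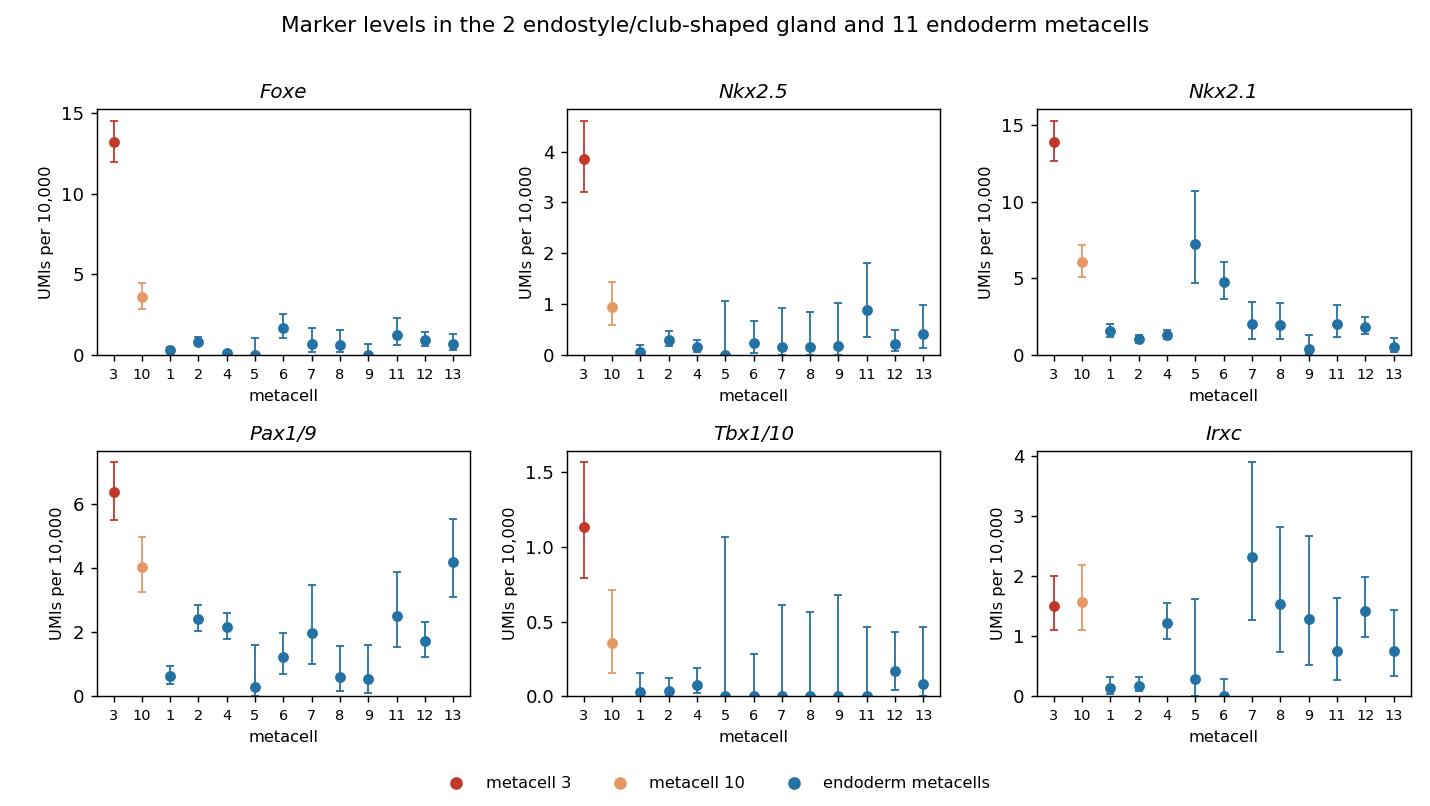
Levels of the 6 marker genes (UMIs per 10,000, y axis, with exact Poisson 95% intervals) in metacells 3 and 10 and the 11 endoderm metacells (x axis). *Foxe* and *Nkx2.5* are highest in metacell 3, while *Nkx2.1* also reaches 7.23 in endoderm metacell 5 and *Irxc* reaches 2.32 in endoderm metacell 7.

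Across the 17 annotated types, the 223 cells had the highest level of each of these 6 genes. How far they stood from the next type differed. For *Foxe* the next level was 0.740, in the small neural_like1 group, with an interval of 0.201 to 1.89. For *Nkx2.5*, *Nkx2.1* and *Pax1/9* the next type was endoderm. *Tbx1/10* reached 0.409 (0.262 to 0.608) in muscular somites against 0.813 (0.591 to 1.09) here, and these intervals overlapped slightly. *Irxc* was not set apart from the next type at this depth, at 1.53 (1.22 to 1.90) against 1.34 (0.640 to 2.46) in the putative neuroendocrine cells.

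Single endoderm metacells came close to metacell 10. *Nkx2.1* stood at 7.23 (4.68 to 10.7) in endoderm metacell 5 and at 4.73 (3.63 to 6.07) in endoderm metacell 6, so the interval of metacell 5 enclosed the level of metacell 10. *Pax1/9* stood at 4.19 (3.11 to 5.53) in endoderm metacell 13, level with metacell 10. *Foxe* reached at most 1.68 (1.05 to 2.54) in an endoderm metacell, below metacell 10. *Nkx2.5* reached 0.878 (0.353 to 1.81) in endoderm metacell 11, which overlapped metacell 10 but not metacell 3.

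Most single cells held few UMIs of these genes. *Foxe* was detected in 64.4% of metacell 3 cells (95% interval 53.4 to 74.4), 15.4% of metacell 10 cells (9.82 to 22.6) and 5.58% of endoderm cells. The share was 0.535% in posterior epidermis, a type taken here as the background of free RNA (6546 cells, median 1246 UMIs). After each cell was thinned to 500 UMIs, *Foxe* was left in 39.1%, 12.6%, 2.98% and 0.250% of the cells of these 4 groups. *Nkx2.1* was detected in 69.0% of metacell 3 cells, 33.8% of metacell 10 cells, 18.4% of endoderm cells and 1.16% of posterior epidermis cells. Thinned, its shares were 41.4%, 20.7%, 6.87% and 0.50%. *Nkx2.5* was found in 40.2% of metacell 3 and 8.82% of metacell 10 cells, against 3.92% of endoderm and 0.214% of posterior epidermis, and in 16.1%, 5.19%, 1.04% and 0.0834% after thinning. All of these shares lay above the posterior epidermis share.

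*Foxe*, *Nkx2.5* and *Nkx2.1* were read out together most often in metacell 3. At least 2 of the 3 genes had a UMI in 59.8% of metacell 3 cells (48.7 to 70.1), 15.4% of metacell 10 cells (9.82 to 22.6), 3.92% of endoderm cells and 0.0611% of posterior epidermis cells. At 500 UMIs per cell these shares were 24.1%, 9.63%, 0.777% and 0.0333%. All 3 genes were found in 27 metacell 3 cells, 4 metacell 10 cells and 5 endoderm cells. Within the 223 cells, *Nkx2.1* was detected in 80.5% of the 77 cells with *Foxe* and in 30.1% of the others, but the cells with *Foxe* were also deeper (median 2572 UMIs against 1632.5). None of the 6 marker genes was detected in 5 of 87 metacell 3 cells (5.75%) and in 56 of 136 metacell 10 cells (41.2%), against 60.5% of endoderm cells. Thinned to 500 UMIs, cells without any of the 6 made up 21.8%, 59.3% and 81.2% of these groups.

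**Figure D2:**
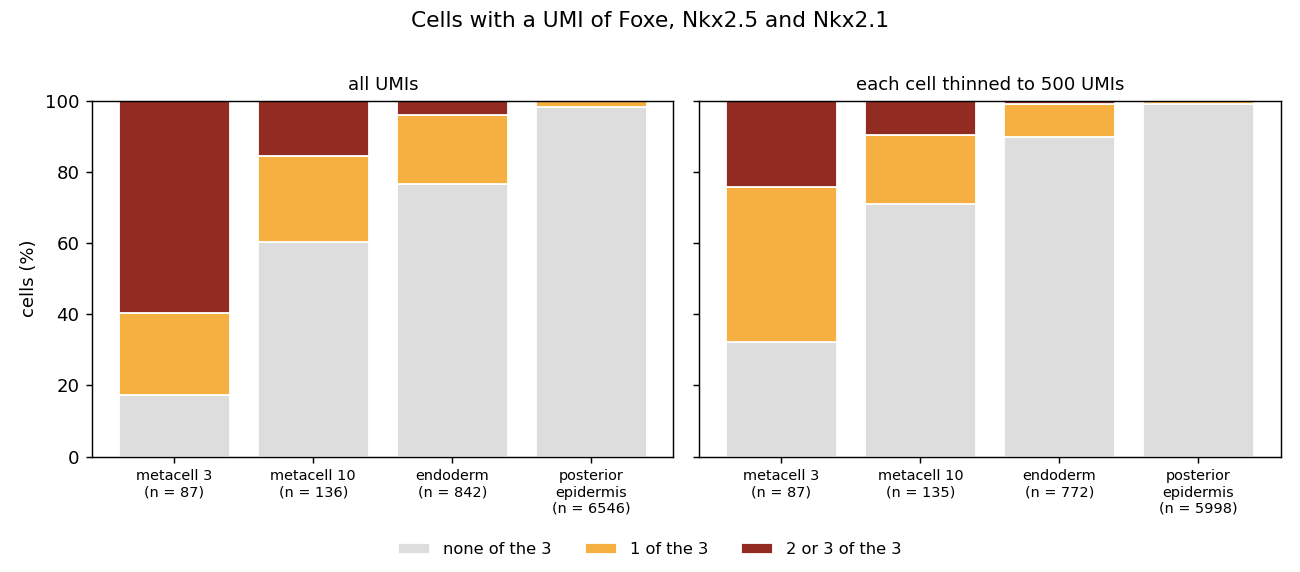
Share of cells (%) with a UMI of none, 1, 2 or all 3 of *Foxe*, *Nkx2.5* and *Nkx2.1* in metacell 3, metacell 10, endoderm and posterior epidermis, at full depth and after thinning to 500 UMIs per cell. Cells with 2 or 3 of the genes are most frequent in metacell 3 (59.8%, thinned 24.1%) and rarer in metacell 10 (15.4%, thinned 9.63%).

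The next question was which other genes set these cells apart from the endoderm. Of 1905 genes with at least 50 UMIs in the 223 cells, 28 were at 2-fold or more over endoderm (1.47%), and 19 of the 1905 (0.997%) had their whole counting interval there. Among these 28 genes, 9 were transcription factors out of 98 tested, 1 was another named gene and 18 had no name here. The transcription factors included 5 of the 6 genes listed as markers here. They were *Foxe* (15.6-fold, 12.8 to 19.0), *Nkx2.5* (12-fold, 8.64 to 16.9), *Nkx2.1* (6.61-fold, 5.79 to 7.56), *Pax1/9* (2.86-fold, 2.46 to 3.33) and *Irxc* (2.13-fold, 1.62 to 2.80). *Tbx1/10* had a fold of 15.3 (7.93 to 31.8) but only 44 UMIs, under the minimum. When the level was taken as the mean of the cells' own levels in place of summed UMIs, which gives shallow cells more weight, *Foxe* was at 10.3-fold and *Nkx2.1* at 4.4-fold. *Irxc* then fell under 2-fold, at 1.83, and it was also under it at 1.94 against the endoderm of the same plates.

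Other genes were high in both metacells. *HEY1* (BLAG16000383), a basic helix-loop-helix repressor that is a common target of Notch signalling, stood at 10.5 (9.39 to 11.7) in metacell 3, 8.86 (7.67 to 10.2) in metacell 10 and 4.31 (4.05 to 4.59) in endoderm, a fold of 2.28. *RBM38* (BLAG16000565), which encodes an RNA-binding protein, stood at 7.44 (6.52 to 8.45), 9.04 (7.83 to 10.4) and 4.02 (3.77 to 4.30) and was the one named gene outside the transcription factors, with a fold of 2.01 (1.79 to 2.26), or 1.87 from the mean of the cells' own levels. For both genes the intervals of the metacells overlapped each other and lay above the endoderm. *TBX2* (BLAG01001316), a T-box factor named here after its value was seen, had a fold of 2.08.

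*HES1* (BLAG11000525), another repressor of the Hes and Hey group, passed 2-fold through metacell 10 alone. Its level was 2.48 (1.96 to 3.09) in metacell 3, 14.6 (13.1 to 16.3) in metacell 10 and 3.01 (2.79 to 3.24) in endoderm. The second gene of that name in the files (BLAG11000894) stood at 3.08, 3.60 and 2.46. Near-identical gene copies may share reads, so the split between genes that carry the same name is uncertain. *Tcf23/24* (BLAG02001453), a basic helix-loop-helix gene with 38 UMIs in these cells, was also higher in metacell 10 in the sums over all plates. It stood at 0.377, 1.17 and 0.195, a fold of 3.60 from summed UMIs and 6.15 from the mean of the cells' own levels. On the plates that held both metacells it had 7 UMIs in each, with levels of 0.622 in metacell 3 and 0.842 in metacell 10. Among the genes without a name, BLAG02001732 had the largest fold (10.1, 6.14 to 17.3), with 51 UMIs in metacell 3 and 5 in metacell 10. BLAG09000419 followed at 5.39-fold and was high in both metacells, at 0.848 and 1.17 against 0.182.

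Named genes that were not transcription factors were higher by less. *TMEM59* reached 1.78-fold, *UNC5C*, a receptor for the guidance cue netrin, 1.56-fold, *CCND2*, a D-type cyclin of the G1 phase, 1.52-fold and *BAMBI*, a pseudoreceptor that dampens TGF-beta signalling, 1.43-fold. *UNC5C*, *TMEM59* and *CCND2* were higher mainly in metacell 3, where *CCND2* stood at 14.0 against 5.85 in metacell 10 and 6.99 in endoderm. The *CCND2* fold over endoderm became 1.15 from the mean of the cells' own levels. It was 1.36 when cells above 4 times their type's median UMIs were left out, and both moves exceeded counting error.

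**Figure D3:**
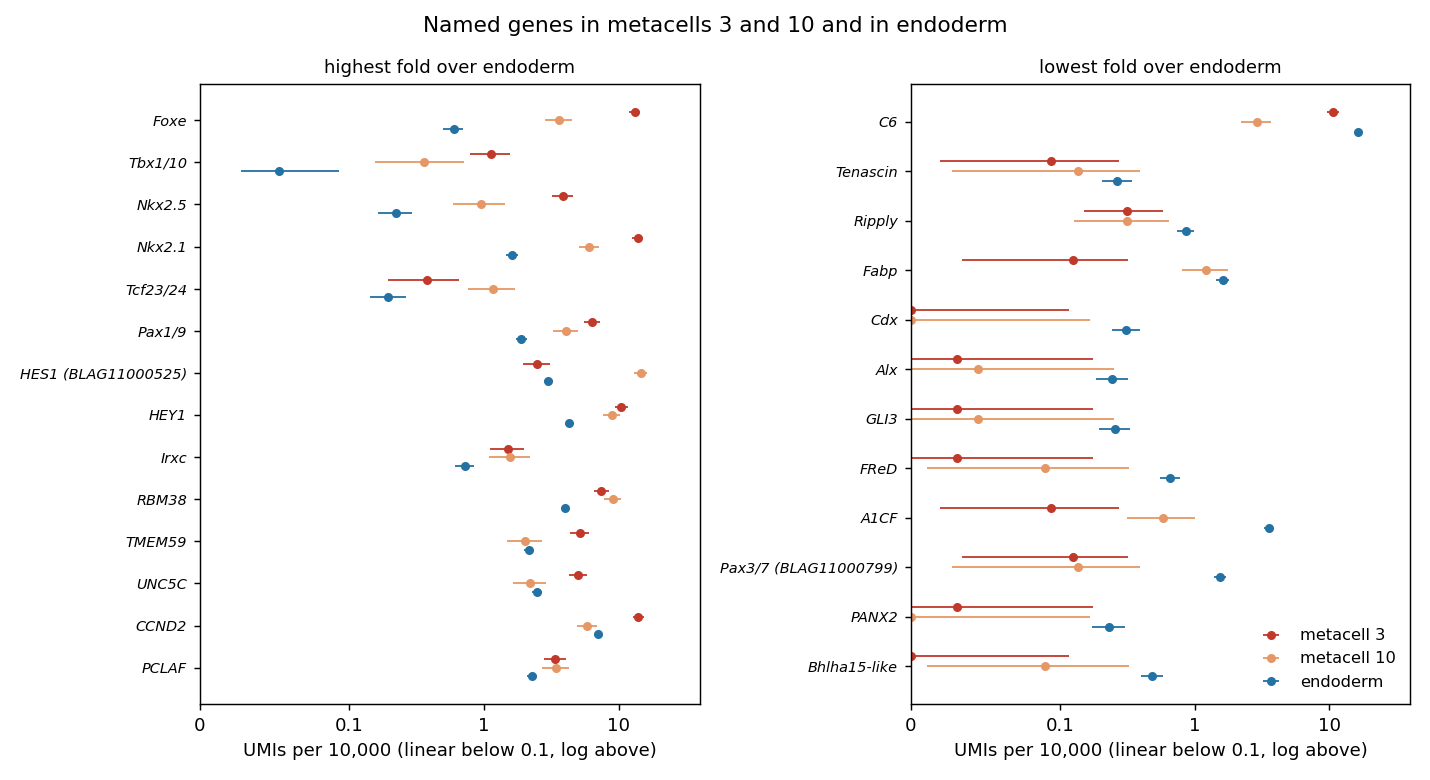
Levels of named genes (UMIs per 10,000, x axis, linear below 0.1 and logarithmic above, with exact Poisson 95% intervals) in metacell 3, metacell 10 and endoderm. *HEY1* and *RBM38* lie at like levels in both metacells, above endoderm, while *HES1* (BLAG11000525) is at 14.6 in metacell 10 and 2.48 in metacell 3.

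In the other direction, 315 of 5430 genes with at least 50 UMIs in endoderm were at 0.5-fold or less in the 223 cells (5.8%). Of the 5430, 65 (1.2%) had their whole interval there, and this smaller count is the firmer one, since 50 UMIs in endoderm correspond to few UMIs in the smaller group. *A1CF*, which in mammals encodes a cofactor of mRNA editing in gut and liver, was 11.9-fold lower (7.30 to 21.0), with 3 UMIs in metacell 3, 13 in metacell 10 and a level of 3.53 in endoderm. From the mean of the cells' own levels it was at 0.150-fold. *FReD*, a fibrinogen-related domain gene, was lower by a factor of 11.8 (3.97 to 58.1) on 3 UMIs. *C6*, named for a complement component, stood at 10.6 in metacell 3, 2.88 in metacell 10 and 16.3 in endoderm, 2.19-fold lower (1.97 to 2.43), which became 0.514-fold against the endoderm of the same plates. *Tenascin*, a gene of the extracellular matrix, had 3 UMIs in each metacell and a level of 0.266 in endoderm.

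Several transcription factors of other territories were at or near 0. Of the transcription factors, 19 of 157 tested were at 0.5-fold or less, beside 315 of 5430 genes (5.8%). *Cdx*, a homeobox gene of posterior identity, had 0 UMIs in the 223 cells and a level of 0.311 in endoderm. With a floor of 3 UMIs over the group it was 5.60-fold lower, and its counting interval ran from 4.44 without an upper limit. *Pax3/7* (BLAG11000799), of the axial dorsal endoderm list, had 7 UMIs and was 11.9-fold lower (5.73 to 29.9). *Bhlha15-like*, a basic helix-loop-helix gene of the endoderm list whose vertebrate relatives act in secretory cells, had 2 UMIs, a ratio of 13.1 (3.54 to 109) in favour of endoderm. *Otp*, *GLI3*, *Alx*, *PANX2*, which is listed among the factors although named for a channel protein, and the second *Pax3/7* gene (BLAG11101295) had 1 or 2 UMIs each in the 223 cells and between 22 and 58 in endoderm. *Ripply*, a gene of segmental boundaries in vertebrates, was 2.72-fold lower (1.66 to 4.77) and level between metacells, at 0.314 and 0.315 against 0.856. The most depleted genes without a name were BLAG13000844 and BLAG01001788, with 6 and 5 UMIs here and levels of 2.25 and 1.46 in endoderm.

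Genes of the general endoderm list mostly stood near or above the endoderm level. Of the 8 genes of the general endoderm list, none of 6 tested was at 2-fold or more (1.47% over all genes). 1 of 7 tested, *Bhlha15-like*, was at 0.5-fold or less (5.8% over all genes). The median fold of the list was 1.30 against 0.97 over all 6075 genes with 50 UMIs in both groups together. *Otx*, a homeobox gene of anterior identity, stood at 11.2 in metacell 3, 7.06 in metacell 10 and 7.41 in endoderm. *Slc6a7*, named for a proline transporter, stood at 9.64, 6.25 and 8.89. *Hypp9287*, a predicted gene of unknown function, stood at 10.5, 22.9 and 12.9, and so was highest in metacell 10.

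The lists for regions of the endoderm held genes that differed between the metacells, in both directions. Of the 8 anterior endoderm genes, 3 had 50 UMIs in metacell 3 and all 3 were at 2-fold or more over metacell 10, beside 267 of 1201 genes (22.2%), and 2 stayed there after division by the fold in endoderm of the same plates. *Zic* alone of the 8 was at 0.5-fold or less of endoderm (5.8% over all genes). *Fgfrl*, an FGF receptor-like gene, stood at 3.55 in metacell 3, 0.540 in metacell 10 and 1.78 in endoderm. *Sfrp1/2/5*, a secreted Wnt antagonist, stood at 4.21, 0.855 and 4.95, and *Fzd5/8*, a Wnt receptor, at 1.57, 0.495 and 0.879. Against the whole endoderm, *Fgfrl* and *Fzd5/8* thus stood higher in metacell 3 and lower in metacell 10, while *Sfrp1/2/5* was lower in both. In endoderm of metacell 10's own plates *Fgfrl* stood at 0.866 (0.577 to 1.29) and *Fzd5/8* at 0.620 (0.377 to 1.0). Both intervals overlapped those of metacell 10 (0.279 to 0.943 and 0.247 to 0.885). In metacell 3, *Fgfrl* lay above its own plates' endoderm (2.92 to 4.26 against 2.11 to 2.71). The *Fzd5/8* intervals overlapped there (1.16 to 2.07 against 0.995 to 1.42). *Six3/6* and *Six4/5*, homeobox genes of the same list, did not differ between metacells beyond counting error (folds of 0.739 and 0.847). *Zic*, a zinc finger gene, had 7 UMIs and was 4.80-fold lower than endoderm (2.27 to 12.2).

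Of the 5 axial dorsal endoderm genes, 2 were at 0.5-fold or less, beside 315 of 5430 genes (5.8%). They were *Pax3/7* (BLAG11000799) and *Zeb*, a zinc finger repressor at 0.414-fold, or 0.513-fold when the deepest cells (above 4 times their type's median) were left out. *Brachyury2*, a T-box gene of the notochord and tailbud, was at 1.38-fold (1.15 to 1.65). Of the 6 mid and posterior endoderm genes, 1 was at 0.5-fold or less (5.8% over all genes). It was *Fabp*, a fatty acid binding protein gene, at 0.126 in metacell 3, 1.21 in metacell 10 and 1.61 in endoderm. Its fold of 0.356 became 0.561 from the mean of the cells' own levels, which ends its call. *Foxaa* (BLAG04001275), a forkhead gene, and *Nkx2.2*, a homeobox gene, had the same shape, with levels of 0.628, 3.46 and 2.95 for the first and 0.283, 1.26 and 0.990 for the second. Metacell 10 was thus near the endoderm level for these 3 genes and metacell 3 was below it. The other *Foxaa* gene (BLAG04001273), of the general endoderm list, ran the other way, at 6.25 in metacell 3, 4.05 in metacell 10 and 3.98 in endoderm, so the metacell 10 pattern holds for one gene model only. *Gata4/5/6*, a zinc finger gene of the mid and posterior list, was also higher in metacell 3, at 2.07 against 1.08 (1.92-fold, 1.19 to 3.20), and *Soxf*, a Sox gene, stood at 2.64 and 2.16. Over the mid and posterior list the median fold of metacell 10 over 3 was 1.14, from the 4 genes with 50 UMIs in both together.

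Among the 28 genes of the signalling list, 1 of 15 tested, *HEY1*, was at 2-fold or more (1.47% over all genes) and 1 of 18 tested, *PLAT*, was at 0.5-fold or less (5.8% over all genes), and the median fold was 0.94. *PLAT*, named for a plasminogen activator, stood at 1.16, 0.855 and 2.13 in metacell 3, metacell 10 and endoderm, a fold of 0.486 that became 0.547 against the endoderm of the same plates. Among ligands, *Wnt8* was 1.83-fold lower (1.36 to 2.5) from summed UMIs but at 0.933-fold from the mean of the cells' own levels. Against the endoderm of its own plates it was at 0.316-fold in metacell 3 and 1.35-fold in metacell 10. *Delta*, a Notch ligand, was 1.88-fold lower (1.16 to 3.21) and *IGF2* at 0.729-fold of endoderm, while *NODAL* and *BMP7* stood at 0.857-fold and 0.859-fold with intervals that reached past 1. *Fgf8/17/18* had no UMI here and 1 in endoderm, and *Wnt4*, *Wnt6* and *Wnt16* had 2 or 3 UMIs each, so no level could be compared. Of the transducers, *SMAD1* and *TCF7L2* stood at 1.11-fold and 1.04-fold and *SMAD3* at 0.612-fold (0.442 to 0.830).

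*Pitx*, a homeobox gene that acts downstream of Nodal signalling on the left side of chordate embryos, stood at 1.98 (1.52 to 2.53) in metacell 3, 1.21 (0.800 to 1.77) in metacell 10 and 1.02 (0.893 to 1.16) in endoderm. It was detected in 26 metacell 3 cells, 20 of which also had *Foxe* (76.9%), and in 18 metacell 10 cells, 1 of which had *Foxe* (5.56%). Among the cells without *Pitx*, *Foxe* was found in 59.0% in metacell 3 and 16.9% in metacell 10. The cells with *Pitx* were deeper than the others in metacell 3 (median 4135 UMIs against 2633) and in metacell 10 (1756 against 1543.5). *Pitx* was present in 29.9% of metacell 3, 13.2% of metacell 10 and 11.5% of endoderm cells, against 2.66% in posterior epidermis. At 500 UMIs these shares became 4.60%, 5.19%, 4.15% and 1.23%, so no order among the first 3 groups was left.

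4 lists of housekeeping and structural processes were drawn from a table of genes that the study called high in endoderm on these same cells, so they are not independent of the comparison. None of their members was at 2-fold or more (1.47% over all genes) or at 0.5-fold or less (5.8% over all genes). The median fold was 1.07 over 15 cell division genes, 0.93 over 17 ribosome biogenesis genes, 0.90 over 18 genes of the secretory pathway and 0.81 over 14 genes of the extracellular matrix and cytoskeleton. Within the secretory list, *FKBP9*, a peptidyl-prolyl isomerase gene of the endoplasmic reticulum, was 1.70-fold lower than endoderm (1.54 to 1.88) and equal in both metacells (8.32 and 8.19 against 14.1). *HSP90B1*, an endoplasmic reticulum chaperone gene, stood at 0.596-fold (0.498 to 0.710), while *CANX*, another chaperone gene, stood at 1.0-fold.

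Markers of other cell types stood at different distances from the types they mark. The summed level of 4 muscle genes was 0.0314 in metacell 3 and 0.0900 in metacell 10, against 54.6 in muscular somites, and *Mrf1* and *Mrf4* had no UMI. The 4 notochord genes summed to 0.251 and 0.495 against 18 in notochord, and the 5 tailbud genes to 0.848 and 0.540 against 46.0 in tailbud. The 8 epidermal genes summed to 10.9 in metacell 3 and 15.4 in metacell 10 against 384 in the highest epidermal type, and endoderm stood at 12.8. The 5 somite genes gave 6.12 and 4.05, with 5.22 in endoderm and 17.8 in somite cells, and 1 of the 5, *Gata1/2/3*, had 50 UMIs in the 223 cells, with levels of 5.68, 3.60 and 3.42 in metacell 3, metacell 10 and endoderm. The 5 neural plate genes summed to 4.17 and 2.07, with 2.64 in endoderm and 34.1 in neural cells. In these 223 cells, 1 of 8 epidermal genes was at 0 in metacell 3 and none in metacell 10, 2 and 1 of 4 notochord genes were at 0, 3 and 2 of 4 muscle genes, 2 and 1 of 5 tailbud genes, and none and 1 of 5 for both the somite and neural plate lists. Their part in the differences above was not tested.

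Plates bear on every comparison of metacell 3 with metacell 10. The 223 cells came from 36 of the 40 plates, metacell 3 from 29 and metacell 10 from 21. 10 plates, numbered 1, 2 and 13 to 20 in the cell names and singled out after the data were seen as those with 5 or more metacell 10 cells, held 115 of 136 metacell 10 cells (84.6%) and 5 of 87 metacell 3 cells (5.75%). The same plates held 25.2% of endoderm cells and 24.7% of all cells. They were shallower, with a median of 787.5 UMIs per endoderm cell against 2490.5 on the other 30 plates. Endoderm metacells were spread unevenly, from 2.68% of metacell 4 cells to 80.2% of metacell 7 cells on these 10 plates. Endoderm weighted to plates therefore differs in its mix of metacells as well as in plate, and these were not separated. The 223 cells made up 3.33% of the cells on these 10 plates and 0.938% on the others. Only 14 plates held both metacells, and 1 plate held 3 or more cells of each. For most cells, metacell and plate therefore cannot be told apart. Whether the plates also divide by the 2 scRNA-seq samples cannot be seen from the cell names.

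**Figure D4:**
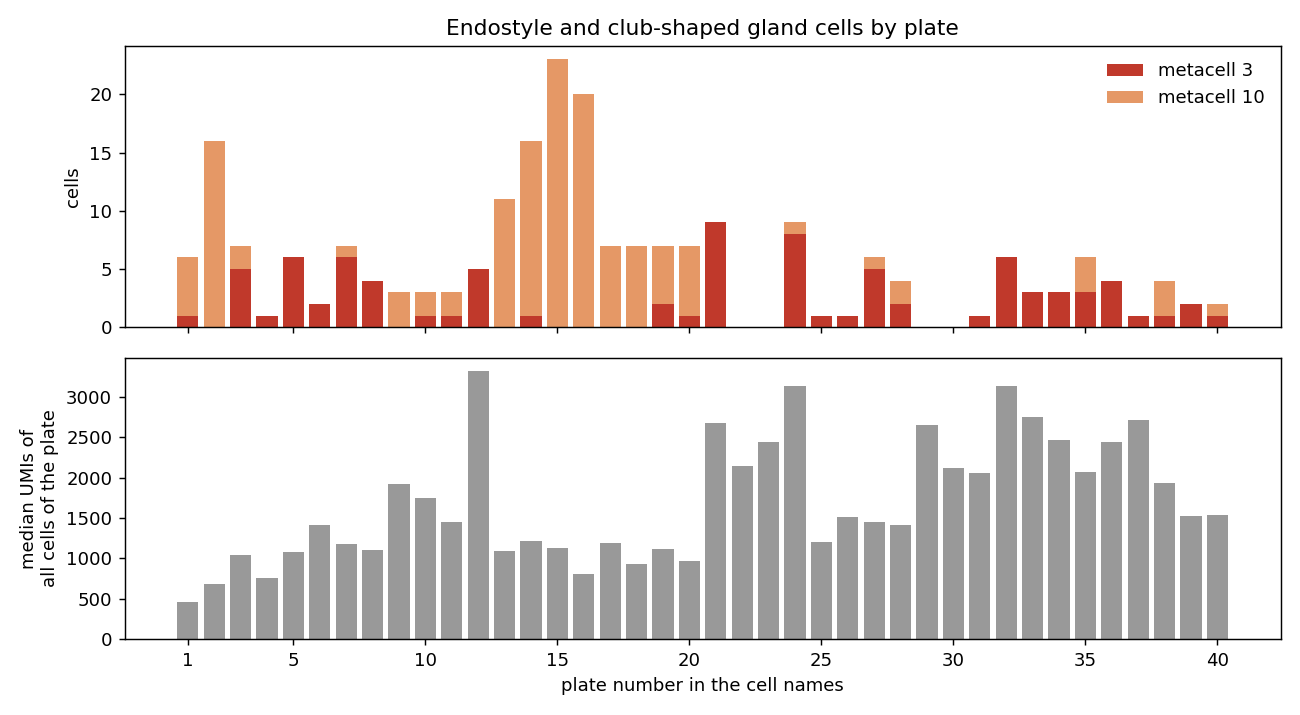
Number of endostyle and club-shaped gland cells per plate by metacell (upper plot, stacked bars) and the median UMIs of all cells of the plate (lower plot), by plate number in the cell names. Metacell 10 cells crowd on plates 1, 2 and 13 to 20, which hold 115 of its 136 cells, and metacell 3 cells lie mostly on the other 30 plates.

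The difference from endoderm was also read plate by plate. Of the 28 plates with at least 3 of the 223 cells, *Nkx2.1* was higher in these cells than in the endoderm cells of the same plate on 27, *Foxe* and *HEY1* on 25, *RBM38* on 23, *Irxc* on 22, *Pax1/9* on 21 and *Nkx2.5* on 20. In the other direction, *FKBP9* was lower on 27 of the 28 plates, *C6* on 26 and *A1CF*, *PPIB*, a prolyl isomerase gene, and *Sfrp1/2/5* on 25. *HES1* (BLAG11000525) was higher on 15 and lower on 13. A plate-matched endoderm, in which the endoderm cells of each plate were weighted as the 223 cells are spread over plates, gave like counts, with 27 genes at 2-fold or more (1.42%) and 296 at 0.5-fold or less (5.45%). Of the first 28 genes, 25 (89.3%) were also at 2-fold over this reference, and 16 (57.1%) were so in both metacells taken each against the endoderm of its own plates. Of the first 315, 253 (80.3%) were again at 0.5-fold or less. *HEY1* was 2.09-fold over its own endoderm in each metacell, *Pax1/9* 3.68-fold and 2.22-fold, *Nkx2.1* 9.74-fold and 3.37-fold, *Nkx2.5* 19.5-fold and 5.41-fold, and *Foxe* 23.5-fold and 6.87-fold in metacells 3 and 10.

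Between the metacells, 267 of 1201 genes with at least 50 UMIs in metacell 3 were at 2-fold or more over metacell 10 (22.2%), and 61 of 680 genes were so in the opposite direction (8.97%). Counting only whole intervals, the numbers were 76 of 1201 (6.33%) and 22 of 680 (3.24%). Endoderm cells weighted to the same plates differed too: 47 of the 1201 genes (3.91%) and 24 of the 680 (3.53%) were at 2-fold or more between the endoderm of the metacell 3 plates and that of the metacell 10 plates. Of the 267 genes, 35 were among them (13.1%), and of the 61 genes, 20 (32.8%). Dividing each fold by the fold in plate-matched endoderm left 131 genes (10.9%) higher in metacell 3 and 15 (2.21%) higher in metacell 10. Transcription factors numbered 26 of 78 tested among the genes higher in metacell 3 and 2 of 45 tested among those higher in metacell 10.

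**Figure D5:**
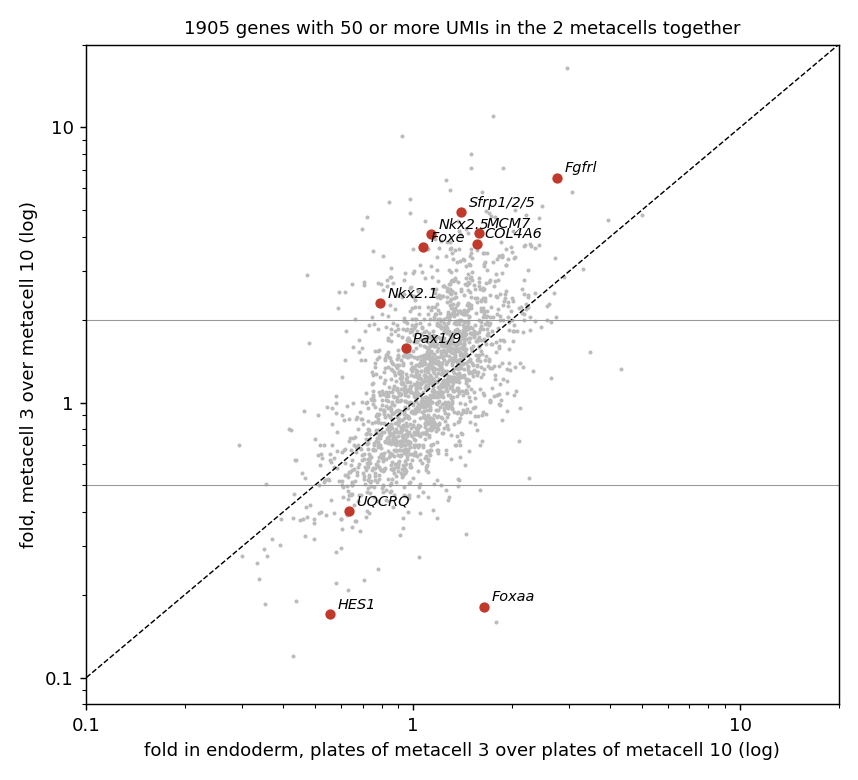
Fold of metacell 3 over metacell 10 (y axis, log scale) against the fold in endoderm cells weighted to the plates of metacell 3 over those weighted to the plates of metacell 10 (x axis, log scale), for 1905 genes with 50 or more UMIs in the 2 metacells together. *Foxe*, *Nkx2.5* and *Nkx2.1* lie at 2-fold or more between metacells and near 1 in endoderm, and *Foxaa* (BLAG04001275) lies on opposite sides of 1.

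The 3 label markers differed between metacells more than the endoderm of their plates did. *Foxe* was 3.67-fold higher in metacell 3 (2.89 to 4.72), *Nkx2.5* 4.09-fold (2.56 to 6.84) and *Nkx2.1* 2.30-fold (1.89 to 2.80). The matching folds in plate-matched endoderm were 1.07, 1.13 and 0.793. The 14 plates with both metacells held 38 metacell 3 and 49 metacell 10 cells. Summed over these plates, *Foxe* stood at 14.8 in metacell 3 and 4.21 in metacell 10, and *Nkx2.1* at 14.4 and 5.53. *Nkx2.5* stood at 2.76 on 31 UMIs and 0.602 on 5 UMIs. These sums were not compared within plates, and the metacells were spread unevenly over them. Plate 14, for example, held 15 metacell 10 cells and 1 metacell 3 cell. *HEY1* was not set apart, with a fold of 1.18 (0.989 to 1.42).

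Further named genes were higher in metacell 3. *Arpd2*, a homeobox gene of the anterior endoderm list, had 31 UMIs in metacell 3 and 2 in metacell 10, a ratio of 10.8 (2.75 to 93.3), with a plate fold of 1.14. *Fgfrl* was 6.57-fold higher (3.62 to 13.1), with a plate fold of 2.76. *Sfrp1/2/5* was 4.92-fold higher (3.03 to 8.43) and *MCM7*, a subunit of the replicative helicase, 4.13-fold higher (2.69 to 6.59), with plate folds of 1.40 and 1.59. The plate fold is the fold of the endoderm weighted to the plates of the same metacells, and for *Fgfrl* it was itself above 2-fold. The type IV collagen genes named *COL4A6* (BLAG14000550 and BLAG14000551) were 3.78-fold and 3.48-fold higher, with plate folds of 1.57 and 1.68, and *C6* was 3.70-fold higher with a plate fold of 2.18. Of the 14 matrix and cytoskeleton genes, 9 were at 2-fold or more in metacell 3, beside 267 of 1201 genes (22.2%). Their median was 2.07 beside 1.2 over all genes. In plate-matched endoderm the median of the same 14 genes was 1.5, and 4 stayed at 2-fold after division, beside 131 of 1201 genes (10.9%). Further transcription factors were *STAT5B*, which transduces cytokine signals (5.58-fold), *POU3F4*, a POU homeobox gene (4.97-fold), and *NR4A2*, an orphan nuclear receptor gene (4.69-fold), with plate folds of 1.85, 1.67 and 2.42. Divided by the plate fold, they were at 3.03, 2.98 and 1.93, so *NR4A2* fell under 2-fold. Summed over the plates with both metacells, *NR4A2* stood at 0.622 in metacell 3 on 7 UMIs and 0.481 in metacell 10 on 4 UMIs.

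Higher in metacell 10 were *Fabp* (9.67-fold, 3.37 to 38.0), *HES1* (BLAG11000525) (5.90-fold, 4.60 to 7.64), *Foxaa* (BLAG04001275) (5.52-fold, 3.34 to 9.53) and *Nkx2.2* (4.46-fold, 2.05 to 10.7). The endoderm weighted to the same plates, metacell 10 over metacell 3, gave 0.868, 1.80, 0.605 and 1.32 for these genes. The endoderm of the metacell 10 plates was thus lower in *Foxaa* and *Fabp* while the metacell was higher. Summed over the 14 shared plates, and not compared within them, *HES1* stood at 12.8 in metacell 10 and 2.31 in metacell 3. *Foxaa* (BLAG04001275) stood there at 3.13 and 0.445. The *Foxaa* gene BLAG04001273 stood there at 3.37 in metacell 10 and 8.36 in metacell 3. *Nkx2.2* had only 2 and 4 UMIs there, with levels of 0.241 in metacell 10 and 0.356 in metacell 3, so its direction did not carry over. *NHP2*, a small nucleolar ribonucleoprotein gene, and *UQCRQ* and *COX7A1*, genes of respiratory complexes, were 2.56-fold, 2.47-fold and 2.7-fold higher, with plate folds of 1.84, 1.57 and 1.51.

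Ribosomal protein and respiratory genes were then summed as lists, which were formed after the values were seen. The 47 ribosomal protein genes summed to 983 in metacell 10, 655 in metacell 3 and 689 in endoderm, and their median fold of metacell 10 over 3 was 1.54, with 1 gene at 2-fold or more. The 16 genes of the respiratory chain and ATP synthase summed to 88.6, 54.6 and 57.9. Of these, 6 were at 2-fold or more, beside 61 of 680 genes (8.97%), and the median fold of the 16 was 1.73. Over all genes this median was 0.83. In the plate-matched endoderm the medians were 1.15 and 1.22, so part of the difference was also present in endoderm cells of those plates. None of the genes of either list was at 2-fold after division by that fold, beside 15 of 680 genes (2.21%).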

How the data were processed

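MARS-seq reads were mapped by the authors with STAR and grouped into metacells with the Metacell package. The deposited UMI counts cover 27073 genes in 14586 cells, with each cell's metacell and type in a second file. A deposited table of expression per metacell was not used here. Plate numbers come from the cell names. The 2 scRNA-seq samples are not separated in the cell names and were taken as 1 sample; 0 columns of single samples were left out. The 4 ATAC-seq samples were not used here.

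Counts were summed per group and given per 10,000 UMIs with exact Poisson 95% intervals, and folds with exact conditional binomial intervals, using scripts tested on simulated data (Python 3.11.15, scipy 1.17.1, numpy 2.4.6, matplotlib 3.10.9, pandas 2.3.3). A fold was counted at 2-fold, or 0.5-fold, with 50 UMIs in the higher group. A group at 0 was set to a floor of 3 UMIs. Thinning drew 500 UMIs per cell without replacement (seed 0) and left out shallower cells. Plate-matched endoderm weights each plate's endoderm level by the UMIs of the compared cells on that plate.

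Named were the endoderm and signalling lists, the transcription factors (20 UMIs) and other named genes (50 UMIs) with the largest folds in each direction, at most 2 unnamed genes per direction, and 2 to 4 genes of other lists. Names come from the study's figures and one of its tables. Members and lists were chosen with earlier results of these data known. No doublet caller was run; 5 of the 223 cells, all in metacell 3, had over 4 times the median UMIs of the type. Alternatives changed the UMI minimum, fold, reference, cells and plates. Some genes that met the naming rule are not reported here.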

Additional observations from a re-analysis of the deposited data

How the results depend on the processing

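Counts of genes moved with the thresholds. For genes higher than endoderm, lower than endoderm, higher in metacell 3 and higher in metacell 10 (28, 315, 267 and 61), a minimum of 20 UMIs gave 81, 778, 715 and 187, a minimum of 1 UMI gave 2680, 1263, 1991 and 1692, and a threshold of 3-fold gave 11, 128, 91 and 16. Whole intervals left 65 lower genes, and 76 and 22 between metacells. Against all other cells, 625 genes were higher and 3010 lower, and metacell 10 alone had 1078 genes lower than endoderm. Division by plate-matched endoderm left 131 and 15 genes between metacells, and the plates with both metacells gave 59 of 387 and 21 of 251. As the mean of the cells' own levels, *Foxe*, *Nkx2.1*, *Pax1/9* and *Nkx2.5* stood at 7.08, 9.02, 4.54 and 2.03 (9.26, 10.7, 5.42 and 2.66 from summed UMIs). Thinned, the shares of the 223 cells with *Nkx2.1*, *Foxe*, *Pax1/9*, *Nkx2.5*, *Irxc* and *Tbx1/10* were 28.8%, 23.0%, 20.27%, 9.46%, 5.41% and 3.15% (47.5%, 34.5%, 44.4%, 21.1%, 20.6% and 11.7% unthinned), and 15.3% had at least 2 of the 3 label markers (32.7% unthinned). With at least 5 in place of 3 of the cells per plate, *Nkx2.1* was higher on 100% of 19 plates. No named fold at 2-fold or more, or at 0.5-fold or less, changed direction. Of the others, *XBP1* (0.871 to 1.26), *Soxf* (0.861 to 1.10) and *MCM7* (1.19 to 0.990) crossed 1 with the mean of the cells' own levels and BLAG13000829 (1.11 to 0.935) with plate-matched endoderm, by more than counting error, and some folds nearer to 1 crossed it within counting error. Of 104 named folds, 100 moved by less than counting error with plate-matched endoderm and 86 with the mean of the cells' own levels. Whole intervals, the plate settings, the thinned co-detection and the alternatives for the 104 folds were chosen after seeing the data. The cause was not tested.

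No paired analysis was possible because all cells were taken as 1 sample, and for that reason no replicate was left out. Depth limits the sparse factors: with 540883 UMIs in the 223 cells, a gene such as *Tbx1/10* or *Arpd2* rests on 44 or 33 UMIs. Intervals cover counting error and not variation between embryos.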
